A study of Mus musculus with 12 samples.

Results

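Cytosolic ribosomal protein genes encode the protein part of the ribosome that translates nuclear messages. They were taken as the rows of the count table whose symbol is Rpsa, Rplp0, Rplp1 or Rplp2, or is Rpl or Rps followed by digits and at most 1 of the letters a, x and y, with 10 or more counts in at least 3 libraries. Of 35275 gene rows, 76 met the spelling and all 76 met the count minimum: 30 proteins of the small subunit and 46 of the large subunit. The spelling leaves out pseudogenes, Rps3a1, Fau, Rack1 and paralogs such as Rpl3l. Polyadenylated RNA of the optic nerve, the tract that carries axons from the retina to the brain, was sequenced in mice labelled NF1, the gene of neurofibromatosis. The 12 libraries came from mice given PBS, the saline control (6 libraries), carboplatin, a platinum drug that cross-links DNA (3 libraries), or selumetinib, an inhibitor of the MEK kinases (3 libraries). All 12 libraries, controls included, carry the NF1 label, and no group without it was used here. The Nf1 allele, strain, age, sex, dose and time of treatment are not given in the sources used here. Since no label ties a library to its own animal, p-values measure spread between samples that may be only technical. The library numbers run PBS 1 to 3, carboplatin 1 to 3, PBS 4 to 6 and selumetinib 1 to 3, and each drug was therefore also set beside the PBS libraries numbered just before it.

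Each ribosome needs 1 copy of nearly every one of these proteins, and cells keep their genes at similar, high levels of message. The messages of most begin with a short tract of pyrimidines, the 5′ terminal oligopyrimidine or TOP tract, through which mTOR signalling and the protein Larp1 control their translation. In nerve, ribosomes serve myelinating oligodendrocytes as well as axons and astrocytes. Loss of 1 copy of several of these genes causes Diamond-Blackfan anaemia, and free Rpl5 and Rpl11 bind Mdm2 when ribosome assembly fails.

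The promoters show a sequence feature that the selection by symbol did not use. RefSeq (GRCm38.p6) gave windows of 250 bases before to 50 bases after the start for 56 of the 76 genes. The letters CTTTC, a core of many TOP tracts, were searched on the gene's strand from 40 bases before to 50 bases after the start. They were found in 31 of 56 ribosomal protein genes (55.4%) and in 13.2% of 27025 genes in the same window. On the opposite strand CTTTC was found in 5 of the 56 (8.93%), against 12.7% of all genes. CCGGAAG, the core bound by ETS-family factors, was found on either strand of the whole window in 23 of 56 (41.1%) against 9.93% of all genes, and TATAAA in 6 of 56 (10.7%) against 15.7%. For TATAAA the direction depended on the window. On the gene's strand from 40 bases before to 50 bases after the start it was found in 4 of 56 (7.14%) against 3.68%. A match is only a run of letters and is not a measured site. The stretches below run from 30 bases before to 20 bases after the annotated start. These are shown for 2 genes with CTTTC (in capitals) beginning at the first annotated base and for 3 genes that passed a test below and have no CTTTC in the window searched.
Rpl38 (chr11:114668550-114668599, plus strand): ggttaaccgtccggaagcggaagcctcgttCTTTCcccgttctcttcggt
Rplp2 (chr7:141447621-141447670, plus strand): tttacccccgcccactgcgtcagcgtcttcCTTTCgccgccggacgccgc
Rps6 (chr4:86857348-86857397, minus strand): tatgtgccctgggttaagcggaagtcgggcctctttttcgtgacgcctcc
Rps9 (chr7:3704011-3704060, plus strand): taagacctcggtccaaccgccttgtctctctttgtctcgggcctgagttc
Rpl23 (chr11:97782420-97782469, minus strand): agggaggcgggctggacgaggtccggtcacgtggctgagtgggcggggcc
Rps6 and Rps9 still carry a run of pyrimidines at the start, with other letters than CTTTC. Between carboplatin and selumetinib the median log2 fold change was 0.82 for the 31 genes with CTTTC and 0.92 for the 25 without.

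The libraries held 21793052 to 33375754 counts. Levels are given as CPM, counts scaled to library sizes adjusted by TMM factors. PBS 1 stood apart: genes of skeletal muscle took 5.83% of its counts and at most 0.224% of any other library. These genes also divided the other libraries by number. They took 0.0125% to 0.224% of PBS 2, PBS 3 and carboplatin 1 to 3, and 0.00115% to 0.00253% of PBS 4 to 6 and selumetinib 1 to 3. Genes of mature oligodendrocytes, the myelin-forming cells of the labelled tissue, were present throughout, at 5.01% to 8.32% of counts in 9 libraries and at 2.06%, 3.06% and 2.17% in PBS 1, selumetinib 1 and selumetinib 2. Neuron genes took 0.128% and 0.146% of selumetinib 1 and 2 and at most 0.0366% elsewhere. Among the carboplatin libraries, genes of photoreceptors reached 0.0820% (library 1) and 0.148% (library 3), those of the pigment epithelium 0.104% (library 2), and red blood cell genes 0.00124% to 0.00808% of the carboplatin libraries against 0.0246% to 0.819% of PBS. In carboplatin against PBS, edgeR called 5 of 5 red blood cell genes and 4 of 4 genes of dividing cells lower, against 0.518% of all genes. In carboplatin against selumetinib it called 7 of 7 photoreceptor genes higher, against 5.65% of all genes, and 4 of 6 neuron genes lower, against 8.35%. In carboplatin against PBS it called 0 of the 7 photoreceptor genes, against 1.57% of all genes called higher. All 7 were higher there at an unadjusted edgeR p under 0.05, as were 1489 of 18344 genes. Their share of counts in carboplatin 2, 0.00353%, was below the 0.0138% of PBS 2. The part of these differences in the results below was not tested. In whole tissue, fewer cells of a type and less RNA per cell cannot be told apart.

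The 76 genes together took 1.74% to 3.49% of all counts. Their share was 2.99%, 2.38% and 2.16% in PBS 1 to 3 and 2.65%, 3.49% and 2.80% in carboplatin 1 to 3. It was 1.74%, 1.90% and 1.89% in PBS 4 to 6 and 2.03%, 1.99% and 2.00% in selumetinib 1 to 3. Every library numbered 1 to 6 was above every library numbered 7 to 12. Gene by gene, 40 of the 76 were highest in PBS 1 and 33 in carboplatin 2, while 40 were lowest in PBS 4 and 20 in selumetinib 2. The median gene deviated from its own mean over the libraries by 0.87 on the log2 scale in PBS 1 and 0.82 in carboplatin 2. The same median was -0.02 and -0.13 in PBS 2 and 3, and -0.46 to -0.27 in the 6 libraries numbered 7 to 12.

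**Figure D1:**
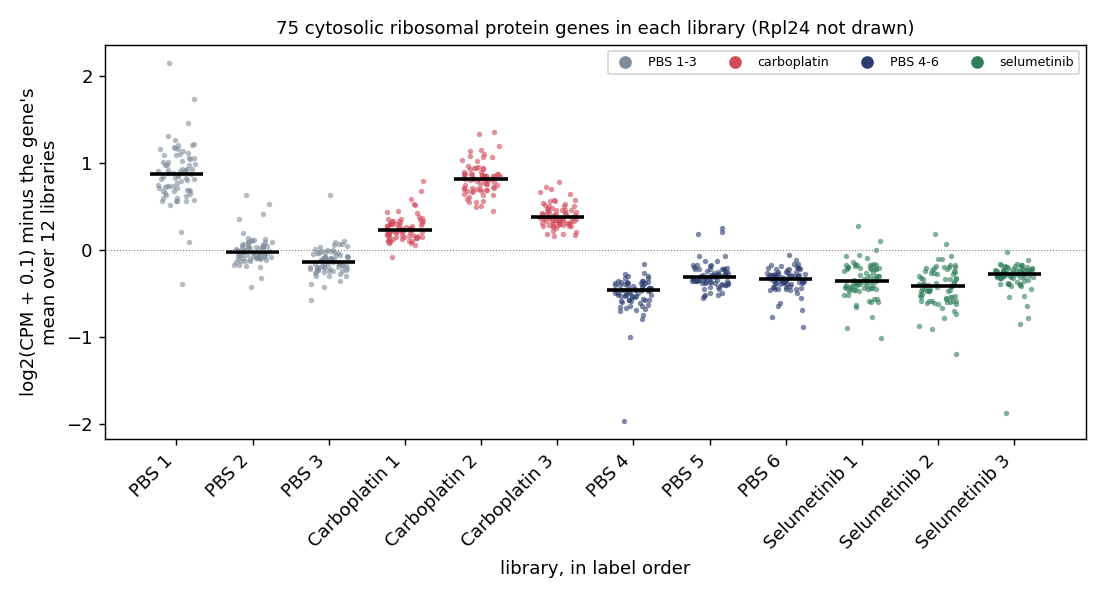
Each point is 1 of the ribosomal protein genes, drawn as log2(CPM + 0.1) minus the gene's own mean over the 12 libraries (vertical axis) in each library in label order (horizontal axis), and bars are medians over the genes drawn. PBS 1 and carboplatin 2 hold the highest medians, and all 6 libraries numbered 7 to 12 have medians below 0; Rpl24 was left out because it had at most 28 counts.

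Among these genes the levels per kilobase of RNA in PBS spanned a wide range. Rplp1, an acidic protein of the stalk that recruits translation factors, was the most abundant at 1149 CPM per kb, followed by Rpl13a of the large subunit at 783 CPM per kb and Rps14 of the small subunit at 752 CPM per kb. At the low end were Rps20 at 59.4, Rps15a at 30.7 and Rpl24 at 1.09 CPM per kb. For Rps20 and Rps15a the annotated principal RNAs are long, 3706 and 5130 bases, against a median of 767.5 bases over the 76 genes, so their values per kb may be understated. Rpl24 had 10 to 28 counts in every library, while every other gene of the set had at least 705. The Rpl24 row (chromosome 16, 55966275 to 55971435) overlaps Gm28037 on the same strand and shares 80.9% of its 75-base words with other transcripts, and Gm28037 had 0 counts in all 12 libraries. Its fold changes are therefore given no weight. Shared words are common here: 74 of the 76 transcripts share some with another gene, a median of 47.7% of them, so counting can divide reads between a gene and its copies.

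Carboplatin was compared with selumetinib to ask how the 2 drugs differ. All 76 ribosomal protein genes had a higher mean in carboplatin, by a median log2 fold change of 0.84 where the median of all 18344 genes tested was -0.01. By edgeR's quasi-likelihood test 11 were higher at an adjusted p under 0.05, against 5.65% of all genes called higher. At an unadjusted edgeR p under 0.05, 51 of the 76 were higher, against 13.6% of all genes. None was called lower by edgeR, against 8.35% of all genes, or by DESeq2 or limma voom, and none had an unadjusted edgeR p under 0.05 in that direction. For 74 of the 76 the 3 carboplatin libraries were all above the 3 selumetinib libraries, a separation that 20.9% of all genes tested showed. The exceptions were Rpl3 and Rps15a. The 2 subunits moved alike: the median was 0.92 for the small subunit (4 of 30 called) and 0.82 for the large subunit (7 of 46 called).

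Of the small subunit, Rps6, the substrate of S6 kinase (chromosome 4, 86854660 to 86857412, build GRCm38), was at 512, 811 and 616 CPM in carboplatin 1 to 3 and at 280, 252 and 288 CPM in selumetinib 1 to 3. PBS 1 to 3 held 560, 409 and 378 CPM of Rps6 and PBS 4 to 6 held 240, 277 and 273 CPM. Both PBS 1 to 3 and carboplatin were thus above both PBS 4 to 6 and selumetinib, with no overlap. Between the drugs Rps6 differed by 1.24 ± 0.31 (SE) on the log2 scale (edgeR adjusted p 0.0291). Rps29, one of the shortest of these proteins (chromosome 12, 69157722 to 69159186), was at 116, 186 and 96.5 CPM in carboplatin and 38.8, 31.5 and 46.2 CPM in selumetinib. Its log2 fold change of 1.78 ± 0.45 (SE) was the largest among the genes called (edgeR adjusted p 0.0305). PBS 1 to 3 held 148, 104 and 71.6 CPM of Rps29, and PBS 5, at 83.4 CPM, lay within that range. Rps28 had as large a difference, 1.78 ± 0.56 (SE), and missed the threshold (edgeR adjusted p 0.0553). Rps4x, the X-linked form of Rps4, was at 679 ± 119 CPM (SD, n = 3) in carboplatin and 339 ± 35.9 CPM in selumetinib, and Rps9 at 780 ± 167 and 346 ± 53.6 CPM. Both were higher by about the amount of the whole set, with log2 fold changes of 1.00 and 1.17 and edgeR adjusted p of 0.0352 and 0.0371.

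Of the large subunit, Rpl21 had the smallest adjusted p (edgeR, 0.0277). It was at 433, 660 and 523 CPM in carboplatin and at 336, 298 and 302 CPM in selumetinib, a log2 fold change of 0.79 ± 0.19 (SE). PBS 1 to 6 held 432, 369, 328, 300, 333 and 322 CPM of Rpl21, so the carboplatin libraries were above every PBS library too, carboplatin 1 by less than 1 CPM over PBS 1. Among the other large-subunit genes called were Rpl36a, Rpl22, Rpl7, Rpl23 and Rpl30, with log2 fold changes from 0.70 (Rpl30) to 1.12 (Rpl22) and edgeR adjusted p from 0.0419 (Rpl36a) to 0.0473 (Rpl7). Rpl22 also has a known part in T cell development, and Rpl23 also binds Mdm2. Rpl38, known for its part in translating Hox messages, differed by 1.35 ± 0.47 (SE; edgeR adjusted p 0.0744). The smallest differences were those of Rps15a (0.27 ± 0.36, SE) and Rpl3 (0.40 ± 0.20, SE), both higher in selumetinib 1 and 2 than in selumetinib 3.

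The calls between the drugs depended on the fit. DESeq2 called 33 higher, against 10.5% of all genes, and limma voom with quality weights 72, against 30%. Without PBS 1, which is in neither group but enters the filter, the scaling and the shared estimate of the spread, edgeR called 72, against 14.9% of 18112 genes tested. Leaving out carboplatin 1, 2 or 3, selumetinib 1 or selumetinib 2 left 0 called, leaving out PBS 3, 5 or 6 left 5 to 7, and the median log2 fold change stayed between 0.66 and 0.98.

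**Figure D2:**
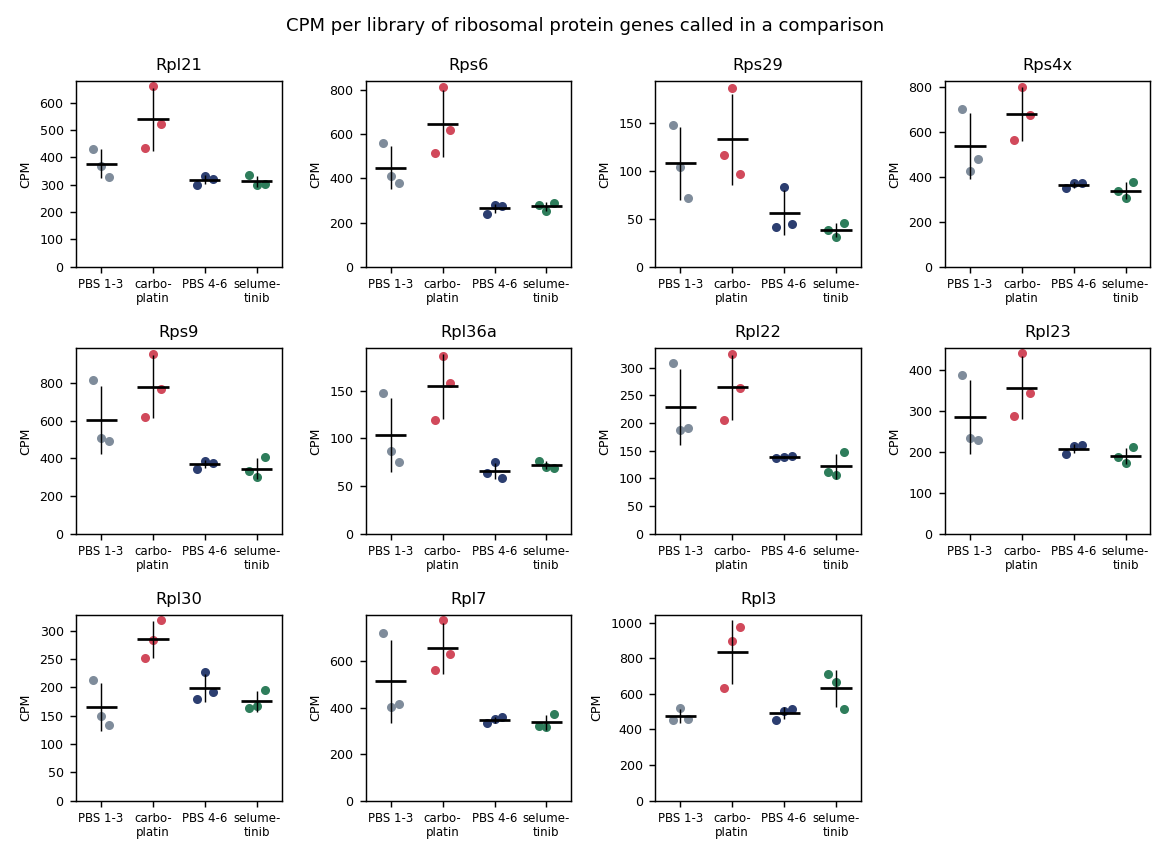
CPM (vertical axis, from 0) of 10 of the 11 genes called between carboplatin and selumetinib and of Rpl3 (last panel), in the 2 sets of PBS libraries and in each drug; points are libraries, horizontal bars means and vertical lines SD over 3 libraries. In the panels other than that of Rpl3, every carboplatin library lies above every selumetinib library and above every library of PBS 4 to 6; PBS 5 stands above the other libraries of its set for Rps29.

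The 2 sets of PBS libraries differed in the same direction as the 2 drugs. In PBS 4 to 6 against PBS 1 to 3, 73 of the 76 genes were lower in the mean, by a median log2 fold change of -0.69 where the median of all genes was -0.04. None passed the edgeR threshold, which 0.00545% of all genes passed as lower. At an unadjusted p under 0.05, edgeR had 57 lower, against 12.3% of all genes. DESeq2 called 5 lower (Rpl8, Rpl18, Rps6, Rps14 and Rps28), against 2.56% of all genes, and voom 0, against 0.224%. For 59 of the 76 every library of PBS 1 to 3 was above every library of PBS 4 to 6, a pattern of 12.3% of all genes. For 47 of the 76 all of PBS 1 to 3 and carboplatin were above all of PBS 4 to 6 and selumetinib, a pattern of 4.14% of all genes. Because the drug libraries follow the same order of numbers, a difference between carboplatin and selumetinib and a difference between the 2 sets of libraries cannot be told apart for these genes from the groups alone. Part of the difference between the PBS sets rests on PBS 1: without it the median was -0.30, where the median of all genes was -0.02.

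Besides Rps2, treated below, Rps28 and Rpl38 had the largest differences between the PBS sets. Rps28 was at 172, 80.3 and 66.7 CPM in PBS 1 to 3 and at 31.2, 55.4 and 33.9 CPM in PBS 4 to 6, a log2 fold change of -1.41 ± 0.37 (SE; edgeR adjusted p 0.211). Rpl38 was at 121, 69.7 and 43.6 CPM in PBS 1 to 3 and at 33, 49.6 and 30.4 CPM in PBS 4 to 6, where PBS 5 overlapped with PBS 3. Over all genes, short RNAs had lower values in PBS 4 to 6: the 1049 protein-coding genes outside the set with RNAs under 1000 bases had a median of -0.46, and those of 4000 bases and over 0.12. Of the ribosomal protein genes 57 have RNAs under 1000 bases, and their median was -0.72. The same short genes outside the set had a median of -0.16 in carboplatin against PBS and 0.14 in carboplatin against selumetinib, where the 57 ribosomal protein genes had 0.51 and 0.83. The genes of the set that went the other way between the PBS sets were Rpl30 (log2 fold change 0.27), Rpl3 (0.04) and the barely counted Rpl24 (0.47).

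The difference of the 2 drug effects took each drug against the PBS libraries numbered just before it. It would remove what a drug shares with those libraries, but no label ties a drug to a PBS set. For the 76 genes the median of this difference was 0.17, where the median of all genes was -0.15. No ribosomal protein gene passed the edgeR threshold, which 0.120% of all genes passed, and 1 had an unadjusted p under 0.05, against 20.4%. That gene was Rpl30, with 0.97 ± 0.28 (SE; edgeR adjusted p 0.146). DESeq2 called 1, against 9.13% of all genes, and voom 21, against 34.8%. PBS 1 is among the controls used, and 1 part of this difference, carboplatin against PBS 1 to 3, moved from 0.20 to 0.59 without it. Fits with libraries left out are not given for the difference itself.

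**Figure D3:**
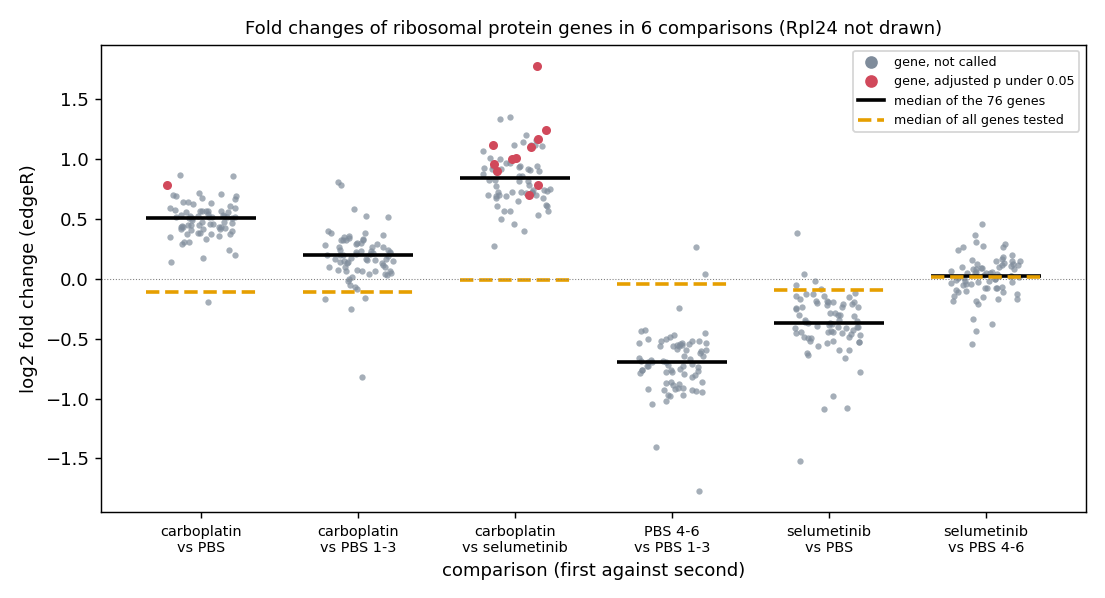
Log2 fold change (vertical axis) of each ribosomal protein gene (points) in 6 comparisons (horizontal axis, first group against second), with red points for genes at an edgeR adjusted p under 0.05, black bars for the median of the set and dashed bars for the median of all genes tested. The set lies above the median of all genes in each carboplatin comparison. It lies below that median in PBS 4 to 6 against PBS 1 to 3 and in selumetinib against PBS. In selumetinib against PBS 4 to 6 it lies beside that median. Rpl24 is not drawn.

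The question for carboplatin was what a DNA-damaging drug changed in the nerve. With all 6 PBS libraries, 74 of the 76 genes had a higher mean in carboplatin, by a median log2 fold change of 0.51 where the median of all genes was -0.11. Only Rpl3 was called by edgeR, against 1.57% of all genes called higher. Rpl3, which lies next to the peptidyl transferase centre (chromosome 15, 80077791 to 80091868), was at 631, 898 and 974 CPM in carboplatin 1 to 3. PBS 1 to 6 held 450, 521, 458, 452, 505 and 513 CPM of Rpl3. Every carboplatin library was above every PBS library, which did not hold for Rpl3 summed with its paralog Rpl3l, treated below. The difference of Rpl3 alone, 0.79 ± 0.17 (SE) on the log2 scale, had an edgeR adjusted p of 0.0370. This call was lost without PBS 2, 3, 4, 5 or 6, carboplatin 2 or 3, or selumetinib 1 or 2, with edgeR adjusted p from 0.0639 (PBS 2) to 0.215 (carboplatin 3). Selumetinib held 710, 667 and 515 CPM of Rpl3, all above the highest of PBS 4 to 6, selumetinib 3 by only a few CPM. Rpl3, Rpl21 and Rpl30 were the 3 genes whose carboplatin libraries all lay above all 6 PBS libraries, a separation shown by 6.97% of all genes. DESeq2 called 5 higher (Rpl3, Rpl21, Rpl30, Rpl36a and Rps6), against 4.52% of all genes, and voom 74, against 17.1%.

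Among the edgeR fits with 1 library left out, the count of calls changed most without PBS 1. Against PBS 2 to 6 alone, 71 of the 76 genes had all carboplatin libraries above all PBS libraries, a pattern of 14.0% of all genes. PBS 1 was the highest library for 40 of the 76 genes, so leaving it out favours such a separation. The same count without carboplatin 2, the highest library for 33, was not made. Without PBS 1, edgeR called 71 higher, against 6.79% of all genes. The median log2 fold change was then 0.72, where the median of all genes was -0.03. The genes not called were Rpl24, Rpl38, Rps2, Rps12 and Rps29. Leaving out PBS 1, selumetinib 1 and selumetinib 2 together, the libraries low in oligodendrocyte genes, left 68 called. Carboplatin 2 was the highest of the 3 carboplatin libraries for most of these genes, and without it the median was 0.31 and no gene was called.

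Within PBS 1 to 3 alone the difference was smaller. The median log2 fold change of carboplatin against PBS 1 to 3 was 0.20, where the median of all genes was -0.11, and 67 of the 76 genes were higher in the mean. None passed the edgeR threshold, which 0.523% of all genes passed as higher, and 5 had an unadjusted p under 0.05 (Rpl30, Rpl3, Rpl21, Rps6 and Rpl36a), against 6.57%. DESeq2 called Rpl3 and Rpl30, against 3.28% of all genes, and voom called 14, against 4.42%. Rpl30 was at 252, 284 and 318 CPM in carboplatin and at 213, 149 and 134 CPM in PBS 1 to 3, a log2 fold change of 0.79 ± 0.20 (SE; edgeR adjusted p 0.126). The 3 genes with no overlap were again Rpl3, Rpl21 and Rpl30, a pattern of 9.64% of all genes. Without PBS 1, which leaves 2 control libraries, the median was 0.59, where that of all genes was 0.00, and edgeR called 4 higher (Rpl10a, Rpl30, Rpl36 and Rpl36a), against 1.33%.

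Selumetinib was compared with PBS to ask what MEK inhibition changed. Against PBS 4 to 6 the ribosomal protein genes lay on the median of all genes: their median log2 fold change was 0.03 and that of all genes 0.02, with 44 of the 76 above 0. No gene of the set passed the edgeR threshold, and 0% of all genes did. None had an unadjusted p under 0.05 either, against 16.9% of all genes. DESeq2 called 0 of the set, against 2.99%, and voom 11 (7 higher and 4 lower), against 54.9%. Rps6 shows the pattern of the set, with a log2 fold change of 0.05 ± 0.21 (SE). For 17 of the 76 all selumetinib libraries were above PBS 4 to 6, a pattern of 12.2% of all genes. The largest differences were those of Rps15a (0.46 ± 0.29, SE), Rpl3 (0.36 ± 0.21, SE) and Rpl10a (0.31 ± 0.28, SE). Among the lowest, besides Rpl24, were Rps29 (-0.54 ± 0.36, SE) and Rplp0 (-0.44 ± 0.49, SE).

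With all 6 PBS libraries as controls, the selumetinib median was -0.37 and that of all genes -0.09, and 74 of the 76 genes were below 0, Rpl3 (0.38) and Rps15a (0.04) being above. edgeR called 0 of the set and 0% of all genes. At an unadjusted p under 0.05 there were 3, against 24.0%. DESeq2 called 0, against 13.1%, and voom 10, against 55.4%. Without PBS 1 the median was -0.11, where that of all genes was -0.01.

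The stalk and the 5S particle followed the set with 1 exception. Rplp0, the base of the stalk, was at 1581 CPM in PBS 1 and at 381, 410, 385, 415 and 438 CPM in PBS 2 to 6. It was at 714, 696 and 578 CPM in carboplatin, and at 235, 259 and 421 CPM in selumetinib 1 to 3. The 2 lowest values of Rplp0 were those of selumetinib 1 and 2. Its log2 fold change of carboplatin against selumetinib, 1.12 ± 0.55 (SE), did not pass (edgeR adjusted p 0.189). Its partners Rplp1, Rplp2 and Rpl12 had differences of 0.86, 0.90 and 0.78 in the same comparison. Rpl5 and Rpl11, which carry the 5S rRNA into the ribosome, had 0.89 and 0.76. Rpl10, added last to the large subunit, had 0.73, Rpsa, also known as the laminin receptor, 0.71, and Rps27a, made as a fusion with ubiquitin, 0.69. None of these reached the edgeR threshold, with adjusted p from 0.0595 (Rpl10) to 0.189 (Rplp0). The 11 genes of the set with known lesions in Diamond-Blackfan anaemia had a median of 0.76, with 0 called and 7 higher at an unadjusted edgeR p under 0.05, where the whole set had 51 of 76 and all genes 13.6%.

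Some pairs of rows need to be read together, and were picked after their values were seen. Rps2 (chromosome 17, 24718116 to 24721929) was at 1377, 479 and 480 CPM in PBS 1 to 3, and at 374, 536 and 415 CPM in carboplatin. It was at 78.5, 369 and 236 CPM in PBS 4 to 6 and at 224, 218 and 83.7 CPM in selumetinib. Rps2-ps13, a pseudogene row that shares 75-base words with it, was at 0.792 CPM or less in PBS 1, 2, 3 and 5, and at 95.8 to 230 CPM in the other 8 libraries. Of the CPM of both rows, Rps2 took 99.9% in PBS 1 and PBS 5 and slightly more in PBS 2 and 3. It took 67.2% to 72.0% in all 3 carboplatin libraries, PBS 6, selumetinib 1 and selumetinib 2, and 28.7% and 30.4% in PBS 4 and selumetinib 3. The library values therefore fell at 3 levels that cut across the treatments. Both rows summed gave 1378, 479 and 480 CPM in PBS 1 to 3, 519, 765 and 600 CPM in carboplatin, 273, 369 and 332 CPM in PBS 4 to 6 and 334, 319 and 275 CPM in selumetinib. In the sum, PBS 4 to 6 no longer held a library far below the rest, and carboplatin was above PBS 2 to 6 in every library, as for most of the set. What divides these counts was not tested, and the fold changes of Rps2 alone (-1.77 between the PBS sets, 1.33 between the drugs) include it.

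Rps3a1, a small-subunit gene outside the spelling, gave a second such pair. It was at 441, 73.2 and 303 CPM in PBS 4 to 6 and at 455, 436 and 307 CPM in selumetinib, while its copy Rps3a2 was at 3.39, 53.6 and 31.5 CPM in PBS 4 to 6 and at 3.93, 2.80 and 36.4 CPM in selumetinib. The 3 libraries with high Rps3a2 (PBS 5, PBS 6 and selumetinib 3) had the 3 lowest values of Rps3a1, and in the other 9 libraries Rps3a2 was at 7.36 CPM or less. The summed level was still only 127 CPM in PBS 5. Rpl3 and its paralog Rpl3l, which takes its place in muscle, were the last pair. Rpl3l was at 468 CPM in PBS 1, beside 450 CPM of Rpl3, and at most 13.4 CPM in any other library. Both rows summed gave 918 CPM in PBS 1, above carboplatin 1 (644 CPM) and 2 (910 CPM) and below carboplatin 3 (975 CPM). In PBS 2 to 6 the sum was 453 to 523 CPM, below every carboplatin library. PBS 1 is the library with the largest share of muscle genes. In it Rpl3 was at the level of the other PBS libraries, while 64 of the 76 genes of the set had an outlying high CPM there.

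**Figure D4:**
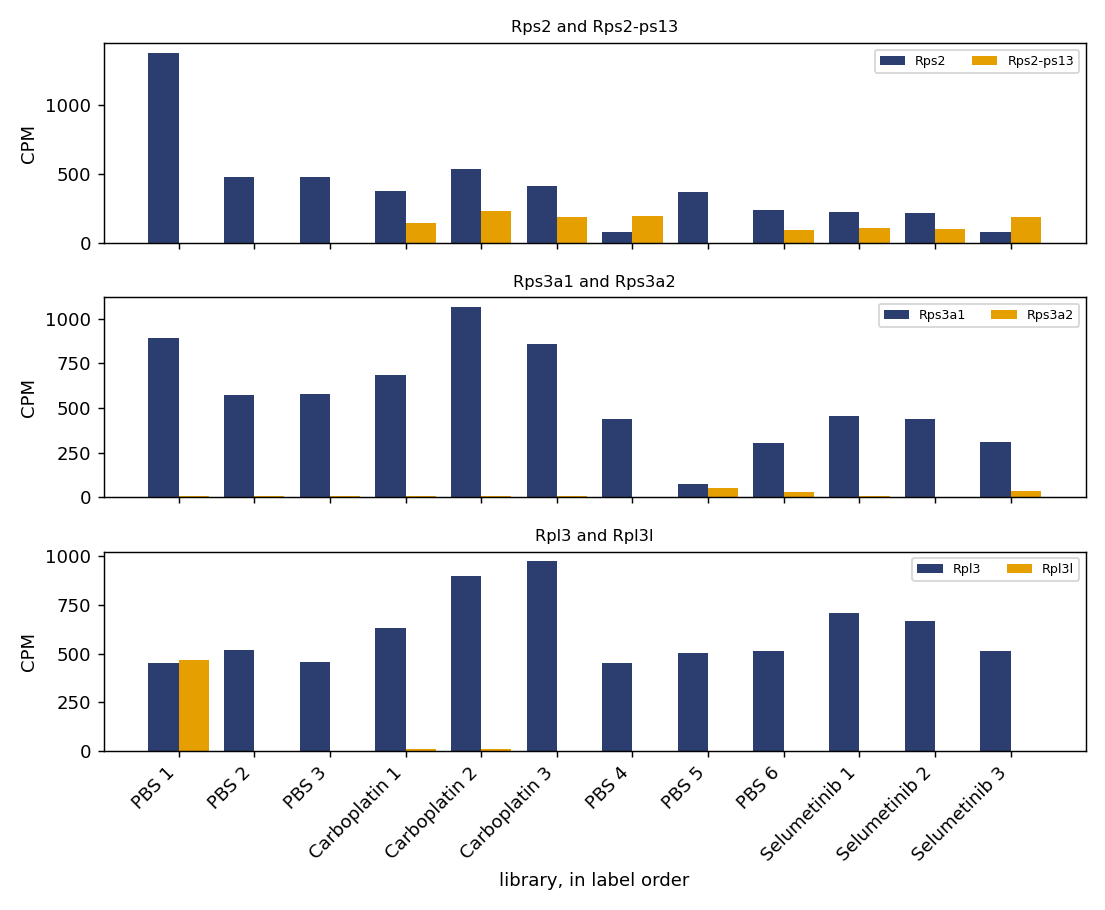
CPM (vertical axes, from 0) of 3 pairs of related rows in each of the 12 libraries in label order (horizontal axis). Rps2-ps13 is near 0 in PBS 1, 2, 3 and 5 and exceeds Rps2 in PBS 4 and selumetinib 3, Rps3a2 is seen in PBS 5, PBS 6 and selumetinib 3, and Rpl3l stands beside Rpl3 in PBS 1 alone.

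Other lists of the translation and energy machinery were set beside the ribosomal protein genes. Of 18 elongation factors and other TOP messages, 2 rose in carboplatin against PBS by edgeR (Eef1a1 and Gas5), against 1.57% of all genes. In carboplatin against selumetinib 4 were higher (Eef1a1, Eef1d, Gas5 and Pabpc1), against 5.65% of all genes. The medians of the 18 in these comparisons were 0.38 and 0.68. Eef1a1, which brings aminoacyl-tRNA to the ribosome, had log2 fold changes of 0.80 and 0.96 (edgeR adjusted p 0.0452 and 0.0205). Gas5, a non-coding TOP transcript that hosts snoRNAs, had 0.85 and 1.00 (edgeR adjusted p 0.0350 and 0.0183). Of 23 initiation factors and their regulators, 0 passed in carboplatin against PBS (2 had an unadjusted edgeR p under 0.05, against 16.5% of all genes), with a median near 0. In carboplatin against selumetinib 1 of the 23 was called higher (Eif5), against 5.65% of all genes, and 1 lower (Eif4a2), against 8.35%. Of 36 genes of rRNA synthesis and ribosome assembly, 6 were higher and 2 lower in carboplatin than in selumetinib, with a median of -0.02, where 5.65% of all genes were called higher and 8.35% lower. Sbds and Rrs1, needed to assemble the large subunit, were among the higher (0.82 and 0.81). The lower ones were Nop58, a core protein of the box C/D snoRNPs that methylate rRNA (-0.91), and Mycn, a growth-promoting transcription factor (-3.34). Mycn fell in carboplatin against PBS by 2.82 on the log2 scale (edgeR adjusted p 0.0385), a comparison in which 0.518% of all genes were called lower. Rows of ribosomal protein pseudogenes moved like the genes, but reads of the genes may be counted in them because of shared sequence. Of 51 tested, 5 were higher in carboplatin than in selumetinib, against 5.65% of all genes, with a median of 1.09.

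Genes of mitochondria and the proteasome are given for comparison. The 75 mitochondrial ribosomal protein genes had medians of -0.21 in carboplatin against PBS and 0.02 in carboplatin against selumetinib, with 0 (1 at an unadjusted p under 0.05) and 1 called by edgeR. The 78 nuclear genes of oxidative phosphorylation had -0.67 and 0.15, with 0 (2 unadjusted) and 2 called. The 18 core proteasome genes had -0.14 and 0.03, with 0 called and 0 at an unadjusted p under 0.05. Of all genes, edgeR called 2.09% and 14.0% in these 2 comparisons, counting both directions. At an unadjusted p under 0.05, edgeR had 16.5% of all genes in carboplatin against PBS. In carboplatin against selumetinib it had 2501 of 18344 genes higher and 3281 lower. In PBS 1 alone the medians of these 3 lists lay 1.25, 2.39 and 0.99 log2 units above the genes' own means over the libraries, where that of the cytosolic ribosomal protein genes lay 0.87 above. In carboplatin 2 the cytosolic set was at 0.82, while these 3 lists were at 0.07, 0.06 and 0.02.

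**Figure D5:**
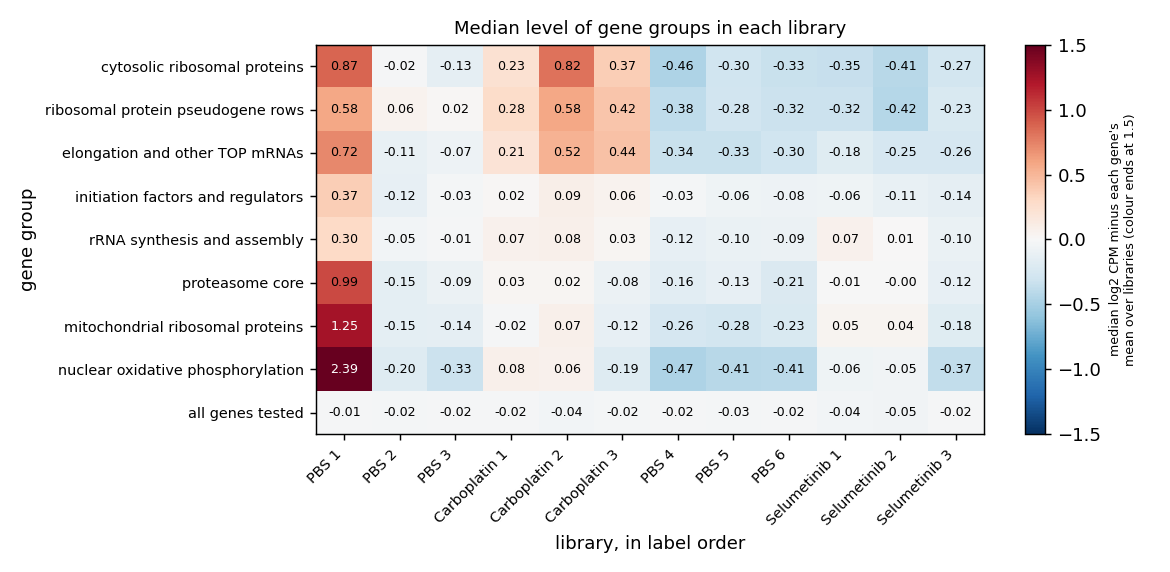
Median over the genes of each group (rows) of log2 CPM minus each gene's own mean over libraries, in each library in label order (columns); numbers in the cells are these medians and the colour ends at 1.5. Cytosolic ribosomal proteins, their pseudogene rows and other TOP messages are raised in PBS 1 and the 3 carboplatin libraries and lowered in the 6 libraries numbered 7 to 12. Pseudogene rows may hold reads of the genes. The mitochondrial and proteasome groups are also raised in PBS 1 and lie within 0.5 of 0 elsewhere.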

How the data were processed

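The deposited table holds raw read counts per gene that the authors made from poly(A) RNA libraries, 1 column per library. The submitters' processing notes name build mm10 and the tools STAR, HTSeq, DESeq2, Trimmomatic and FastQC, with no roles. Versions, annotation release, strand setting and the handling of reads with several matches are not given in the sources used here. Genes were filtered with filterByExpr (minimum count 10), scaled with TMM factors and tested in edgeR 4.0.16 (R 4.3.3; robust quasi-likelihood fit over all 12 libraries, Benjamini-Hochberg adjustment over 18344 genes, threshold 0.05). Comparisons with PBS or between drugs used 3 groups (common dispersion 0.272), and comparisons with 1 set of PBS libraries used 4 (0.198). An SE is the log2 fold change over the square root of the F statistic. Depth was 21793052 to 33375754 counts, and every gene of the set except Rpl24 had at least 705 counts per library. The test script was checked on simulated counts. DESeq2 1.42.0, limma 3.58.1 (voom), other scalings, filters and libraries left out were alternatives. Lengths, positions and shared 75-base words came from GENCODE M21 (GRCm38), promoters from RefSeq.

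The members and lists were chosen with earlier results of these data known. Genes were named if called in a comparison, if among the 3 largest or smallest fold changes of one, if among the 3 most or least abundant per kb, or if in a fixed list of stalk, 5S particle and well-known proteins. Rps2-ps13, Rps3a2 and Gm28037 were added after their values were seen. Results of some genes are not reported here.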

Additional observations from a re-analysis of the deposited data

Results flagged for a closer look

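Among the 6 PBS libraries, 64 of the 76 ribosomal protein genes had 1 library farther from the rest than Dixon's 95% limit for 6 values. Chance flags about 1 in 20 such groups, and the genes share their libraries. For the 23 genes named here the library was PBS 1, and its value was the highest. Of the small subunit, PBS 1 held 898 CPM of Rps14, 815 of Rps9, 1377 of Rps2, 1246 of Rpsa, 701 of Rps4x, 455 of Rps27a, 172 of Rps28, 468 of Rps20 and 302 of Rps15a. Of the stalk it held 1581 CPM of Rplp0, 932 of Rplp1, 343 of Rplp2 and 535 of Rpl12. Of the rest of the large subunit it held 1251 CPM of Rpl13a, 621 of Rpl10, 309 of Rpl22, 720 of Rpl7, 559 of Rpl11, 616 of Rpl6, 359 of Rpl10a, 389 of Rpl23, 639 of Rpl5 and 147 of Rpl36a. PBS 1 also held 5.83% of its counts in skeletal muscle genes, and the part of this in these values was not tested. The flags rest on CPM scaled with TMM factors, which were 0.728 for PBS 1 and 1.02 to 1.06 for the other PBS libraries. A smaller factor raises every CPM of its library. The set's share of counts, which uses no such factor, was 2.99% in PBS 1 and 1.74% to 2.38% in the other PBS libraries. That share was not flagged.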

How the results depend on the processing

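The direction of the median of the set held under every alternative run in 5 of the 6 comparisons, and that of selumetinib against PBS 4 to 6, near 0, turned to -0.0053 with upper-quartile factors and to -0.011 without PBS 4. Counts of calls moved far more, and the cause was not tested. Higher in carboplatin than in PBS, 1 in the fit as designed, were 5 (DESeq2), 74 (voom), 68 (without PBS 1, selumetinib 1 and selumetinib 2, added after seeing the data) and 0 with upper-quartile factors, library totals, no filter or only the groups compared; leaving out 1 library gave 0 to 71. Higher in carboplatin than in selumetinib, 11 as designed, were 33 (DESeq2), 72 (voom), 17 (upper-quartile factors), 7 (no filter), 46 (only the groups compared) and 0 (the 3 libraries left out together); leaving out 1 library gave 0 to 72. Carboplatin against PBS 1 to 3 gave 2 (DESeq2), 14 (voom) and 7 (the 3 left out), and 0 to 4 with 1 library left out; its median of 0.20 became 0.54 with the 3 left out and 0.022 to 0.59 with 1 left out. PBS 4 to 6 against PBS 1 to 3 gave 5 lower with DESeq2, and its median of -0.69 became -0.34 (voom), -0.32 (the 3 left out) and -0.87 to -0.30 (1 left out). With 1 left out the median of selumetinib against PBS 4 to 6 was -0.011 to 0.087. voom called 3 higher and 7 lower in selumetinib against PBS and 7 higher and 4 lower against PBS 4 to 6, and the median against PBS became -0.047 with the 3 left out. Library totals moved the median of all genes between the drugs from -0.01 to -0.26, and that of the set from 0.84 to 0.58.

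The replicate number as a block left 0 genes called in carboplatin against PBS and 0 in carboplatin against selumetinib. Deviations of same-numbered libraries correlated by -0.14 to 0.30, and not over 0.1 for every pair, so the numbers were not taken as a pairing. No paired analysis was possible because the groups share no replicate numbers for PBS 4 to 6 against PBS 1 to 3 and selumetinib against PBS 4 to 6. The alternatives were run for single genes only on Rpl3 (carboplatin against PBS) and the 11 genes called between the drugs, and these 12 kept their direction; Rpl3 passed in 9 of 23, with edgeR, DESeq2 or voom adjusted p from 0.000135 to 0.475. Depth was no limit for any gene of the set but Rpl24.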
